A study of Mus musculus with 60 samples.

Results

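Sulforaphane (SFN) was given to diet-induced obese (DIO) mice, and the RNA response of skeletal muscle was set against that of liver under the same mouse numbers. The question was which genes responded differently in the 2 tissues, which moved in opposite directions, and which moved together. The study asked in which tissue SFN acts, with oxidative stress genes in muscle as one of its readouts. The members were the 20 muscle and liver libraries among the 60 of the series, 5 for each of 4 groups: muscle of SFN-treated mice, muscle of vehicle-treated mice, liver of SFN-treated mice and liver of vehicle-treated mice. A gene entered where its mean reached 0.5 FPKM (fragments per kilobase of gene scaled to library depth, the deposited expression unit) in both tissues, which kept 10819 of 54532 genes.

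All mice were wild-type C57BL/6 males. They were put on a high-fat diet at 12 weeks of age and stayed on it for 16 to 20 weeks. At about 28 weeks the SFN group received 5 mg/kg SFN intraperitoneally each day for 1 week, and the vehicle group received vehicle injections on the same schedule. Mice 6 to 10 received SFN and mice 1 to 5 vehicle, and the labels carry the same mouse number on a muscle and a liver library. Below, values of single mice are listed in the order of mouse number. Whole tissue was sequenced, so each value is a mixture of the cell types in it. The labels do not name the muscle that was dissected for sequencing.

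SFN is an isothiocyanate that reacts with cysteines of KEAP1, the adaptor that sends the transcription factor NRF2 for degradation. NRF2 freed from KEAP1 binds antioxidant response elements and switches on genes for glutathione synthesis, thioredoxin reduction and detoxification. Liver is the main site of xenobiotic conjugation and of plasma protein secretion, and skeletal muscle is a large consumer of glucose and fatty acids.

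The recovered depth was 16339081 to 21205954 reads per library. The summed level of 12 hepatocyte markers was 1.73 to 8.63 FPKM in muscle and 62000 to 95200 FPKM in liver, and that of 18 muscle fibre markers was 113000 to 140000 FPKM in muscle and 2.52 to 15.7 FPKM in liver. Within liver some cell type markers differed with treatment. The 12 hepatocyte markers summed to 93289, 65372, 61990, 85028 and 68102 FPKM with SFN, against 95175, 85990, 84952, 89505 and 87039 FPKM with vehicle, where SFN mice 7, 8 and 10 lay below all vehicle mice. The 6 cholangiocyte markers summed to 418, 210, 1013, 374 and 862 FPKM with SFN, against 57.6, 151, 77.9, 61.3 and 100 FPKM with vehicle, with no overlap and 0 of the 6 at 0 throughout either group. Most of that sum was Spp1, with a mean of 566 FPKM in SFN liver and 81.2 FPKM in vehicle liver, while the duct markers Krt19 (2.58 and 2.27 FPKM) and Epcam (1.21 and 2.13 FPKM) stayed low. The 2 of them tested, Spp1 and Sox9, rose in liver. Their part in the liver results below was not tested. The SFN muscle library of mouse 9 stood apart in nerve markers, with a summed level of 346 FPKM, against 29.9 to 75.2 FPKM in the other 4 SFN muscles and 37 to 59.5 FPKM in the vehicle muscles.

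The response to SFN differed between muscle and liver for 92 of the 10819 genes, with 29 higher and 63 lower in muscle relative to liver. These are 0.268% and 0.582% of the genes tested. The test was limma on the muscle-minus-liver difference of each mouse, 5 SFN against 5 vehicle mice, on log2(FPKM + 0.1), with Benjamini-Hochberg adjustment and a threshold of 0.05. An interaction log2 fold change below is the response in muscle minus that in liver. Before adjustment 2304 genes had a limma p under 0.05, 1108 higher (10.2%) and 1196 lower (11.1%). Of the 92, 6 (Avpr1a, Ccl24, Gm15920, Igdcc4, Rps12-ps9 and Vangl1) averaged under 0.5 FPKM in 1 treatment group of a tissue and so entered through the other group. In all 92 the differences of the SFN mice and those of the vehicle mice did not overlap; over all genes tested, 2.76% had non-overlapping differences in the higher and 3.34% in the lower direction. With 5 against 5 mice the smallest exact permutation p is 0.00794, which every gene without overlap takes. For these 92 genes it is therefore no separate test.

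The change in liver was the larger of the pair in 72 of the 92 genes and the change in muscle in 20. In liver alone 1539 genes passed, 798 higher (7.38%) and 741 lower (6.85%), and 73 of them also passed the interaction test. The liver count was 1011, 961, 1794 and 994 without SFN mouse 7, 8, 9 or 10 and 1016 and 806 without vehicle mouse 4 or 5. In muscle alone limma passed 0 genes (0%). There 673 genes (6.22%) were higher and 798 (7.38%) lower at an unadjusted p under 0.05, and the smallest limma adjusted p was 0.103. On recovered reads edgeR called 0 genes in muscle and DESeq2 called 156, and without SFN mouse 6 or 9 limma passed 1 and 3. Muscle levels below are accordingly described as higher or lower, and a muscle p is an unadjusted one unless stated otherwise. The mean response over both tissues passed for 659 genes, 291 upward (2.69%) and 368 downward (3.40%). That count was 258, 279, 936 and 131 without SFN mouse 7, 8, 9 or 10, and 247, 240, 282, 232 and 231 without vehicle mouse 1, 2, 3, 4 or 5.

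The number of interaction genes depended on single mice. Without SFN mouse 6, 7, 8, 9 or 10 it was 47, 17, 20, 452 and 9. Without vehicle mouse 1, 2, 3, 4 or 5 it was 10, 17, 20, 8 and 8. A single fit of the 4 groups with no replicate block passed 754 genes. On recovered reads edgeR passed 474 of 10464 genes and DESeq2 833 of 10058. Counts of list members under these settings are to be read beside these totals. Of the 39 named genes that passed, 32 lost the call in 5 to 12 of their alternative settings, nearly always with a mouse left out or with no minimum.

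Over all genes the signs of the 2 responses fell into each combination in like numbers. Both tissues were higher with SFN in 2465 genes (22.8%), both lower in 3070 (28.4%), muscle higher and liver lower in 2628 (24.3%), and muscle lower and liver higher in 2656 (24.5%). Across the 10819 genes Pearson's r of the log2 fold changes was 0.106 and Spearman's rho 0.0591. Genes are not independent replicates, and the libraries of a mouse share its handling. Among genes under an unadjusted p of 0.05 in each tissue, 290 had the same sign (96 higher and 194 lower) and 231 had opposite signs (116 with muscle higher, 115 with liver higher).

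**Figure D1:**
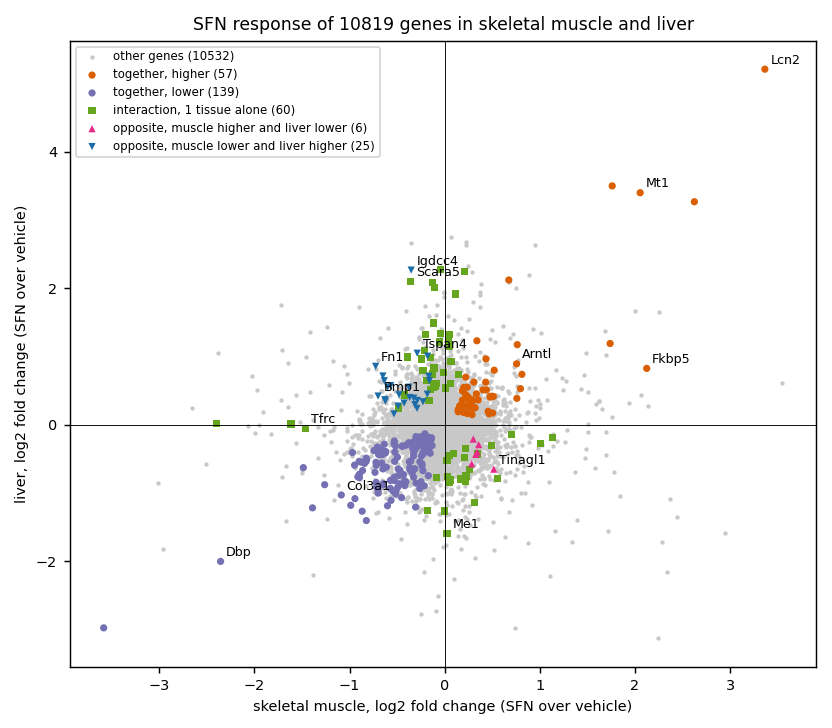
The log2 fold change (SFN over vehicle) in skeletal muscle (x axis) and in liver (y axis) is plotted for each of 10819 genes, with coloured points for the classes described in the text. The 57 and 139 genes that moved together lie in the upper right and lower left, the 31 genes that moved in opposite directions lie in the other quadrants, and Lcn2 stands farthest from the origin.

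A gene was counted as opposite where it passed the interaction test and had an unadjusted p under 0.05 in each tissue with opposite signs. That held for 31 genes, 6 with muscle higher and liver lower and 25 with muscle lower and liver higher. Without SFN mouse 6, 7, 8, 9 or 10 the counts were 7, 3, 3, 70 and 1 in the first class and 13, 4, 5, 81 and 1 in the second. Without vehicle mouse 1, 2, 3, 4 or 5 they were 1, 2, 3, 1 and 1 in the first and 2, 6, 4, 2 and 1 in the second. The 6 are Tinagl1, Zfp143, Neat1, Max, Gpt2 and Urb1. Their muscle log2 fold changes were 0.28 to 0.52 and their liver log2 fold changes −0.65 to −0.21. In liver 3 of the 6 fell: Tinagl1, Gpt2 and Neat1. The mice of the treatment groups did not overlap in muscle for 3 of the 6 and in liver for 3, and for none of the 6 in both. The class was chosen by its p in each tissue, so such separation is partly built in and is a description.

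Tinagl1 (chr4:130164454-130175122, minus strand, GRCm38) encodes a secreted protein of the extracellular matrix. It had 12.1, 14.5, 13.6, 11.8 and 13.6 FPKM in the muscle of SFN mice, against 7.42, 8.27, 9.94, 10.5 and 9.84 FPKM in the muscle of vehicle mice. The liver had 3.33, 4.52, 3.58, 3.03 and 5.03 FPKM with SFN, against 4.28, 5.5, 5.71, 8.35 and 7.34 FPKM with vehicle. Every SFN muscle was above every vehicle muscle, and the liver groups overlapped through vehicle mouse 1. The interaction log2 fold change was 1.17 (standard error 0.13, limma adjusted p = 0.00777). Its exact permutation p of 0.00794 follows from the lack of overlap in the differences, as for all 92 genes. Tinagl1 was one of 7 named genes that passed under all 21 alternative settings.

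Gpt2 (chr8:85492576-85527560, plus strand) encodes the mitochondrial alanine aminotransferase, which moves amino groups between alanine and glutamate. In muscle it had 82.2, 122, 123, 111 and 103 FPKM with SFN, against 68, 79.3, 87.6, 86.5 and 106 FPKM with vehicle. In liver the values were 106, 99.2, 113, 123 and 106 FPKM with SFN, against 137, 145, 135, 143 and 164 FPKM with vehicle. The livers did not overlap and the muscles did. Mean muscle levels were 108 ± 16.7 FPKM with SFN and 85.5 ± 14 FPKM with vehicle, and mean liver levels 110 ± 9.03 FPKM with SFN and 145 ± 11.3 FPKM with vehicle (SD, n = 5 each). The interaction log2 fold change was 0.75 (standard error 0.14, limma adjusted p = 0.0428).

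Max (chr12:76937269-76962201, minus strand) encodes the obligate dimerization partner of the Myc transcription factors. Its muscle level was 9.43, 11.8, 12.3, 10.8 and 13.2 FPKM with SFN, against 8.67, 8.44, 9.19, 10.1 and 9.92 FPKM with vehicle. Its liver level was 7.4, 7.23, 7.9, 7.76 and 8.08 FPKM with SFN, against 8.22, 8.27, 9.14, 10.2 and 8.82 FPKM with vehicle. The change was small in both tissues (interaction log2 fold change 0.51, standard error 0.09, limma adjusted p = 0.0428), and in liver all 5 SFN mice lay below all 5 vehicle mice. Its promoter is shown because, of the 5 genes of this class with a window in the RefSeq table (GRCm38.p6), it alone held the antioxidant response element sought here. The 250 bases before the start, chr12:76962249-76962498 on the minus strand, are written 5′ to 3′ with matches in capitals:
Max: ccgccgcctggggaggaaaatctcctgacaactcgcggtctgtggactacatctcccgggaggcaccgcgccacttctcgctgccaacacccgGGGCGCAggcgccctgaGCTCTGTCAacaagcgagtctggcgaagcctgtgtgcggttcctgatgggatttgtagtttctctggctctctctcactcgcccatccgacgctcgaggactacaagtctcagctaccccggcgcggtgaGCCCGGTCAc
The capitals mark, in order, a metal response element (TGCNCNC, here on the reverse strand) and 2 antioxidant response elements (TGACNNNGC, both on the reverse strand). The search took both strands of a window from 250 bases before to 50 bases after the start. Of all 27025 RefSeq promoters 14% held the antioxidant and 53.6% the metal response element, and of the 8065 promoters of genes tested 17.4% and 64.6%. A match says only that these letters are present.

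Neat1 (chr19:5824708-5845478, minus strand), the long noncoding RNA around which nuclear paraspeckles form, had 116, 123, 184, 121 and 137 FPKM in SFN muscle, against 104, 116, 125, 111 and 97.6 FPKM in vehicle muscle. Its liver values were 31.8, 30.7, 36.9, 32.8 and 23.6 FPKM with SFN, against 43.1, 57.4, 48.4, 42.7 and 40.1 FPKM with vehicle. Only the livers were separate. Zfp143, a zinc finger factor of promoters, had muscle levels of 6.06, 4.72, 4.31, 4.87 and 5.89 FPKM with SFN, against 4.27, 4.26, 3.71, 4.03 and 4.08 FPKM with vehicle, and its interaction log2 fold change was 0.76 (standard error 0.10, limma adjusted p = 0.0192). Urb1, known from yeast as a factor of large ribosomal subunit assembly, had an interaction log2 fold change of 0.65 (standard error 0.13, limma adjusted p = 0.0456).

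The 25 genes with muscle lower and liver higher included Fn1, Col15a1 and Bmp1 of the extracellular matrix and Pdia6, Ostc and Calu of the secretory pathway. Muscle log2 fold changes were −0.73 to −0.16 (median −0.38) and liver log2 fold changes 0.16 to 2.27 (median 0.44). The 2.27 is that of Igdcc4, which averaged under 0.5 FPKM in vehicle liver and entered through SFN liver, where it was high. The next largest was 1.05, for Tspan4. Of the 25, 18 rose in liver. The mice did not overlap in muscle for 8 genes, in liver for 17 and in both tissues for 6. Since the class was chosen by its p in each tissue, such separation is partly built in and is a description. The 25 genes were Tspan4, Bmp1, 2310009A05Rik, Col15a1, Calu, Fn1, Gm10516, Rnf213, Ndst1, Igdcc4, Ostc, Pdia6, Socs3, Arhgap42, Med29, Slc25a33, Ppp3cc, Fbxl17, Ung, Cstf3, Antxr2, Ints10, Tmem218, Tspan9 and Kcp.

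Bmp1 (chr14:70474558-70520234, minus strand) encodes the procollagen C-proteinase, which trims fibrillar procollagens outside the cell. Muscle had 2.73, 2.12, 2.82, 3.03 and 3.02 FPKM with SFN, against 4.52, 3.89, 4.23, 4.86 and 5 FPKM with vehicle. Liver had 32, 30.3, 31.6, 33.3 and 39.3 FPKM with SFN, against 27.4, 23.7, 25.2, 21.6 and 26.5 FPKM with vehicle. The groups were fully separate in both tissues (interaction log2 fold change −1.12, standard error 0.13, limma adjusted p = 0.00765).

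Fn1 (chr1:71585520-71653200, minus strand) encodes fibronectin, which hepatocytes secrete into plasma and fibroblasts lay down in tissue. It had 3.67, 1.98, 4.22, 3.26 and 3.19 FPKM in SFN muscle, against 5.77, 3.83, 4.87, 6.55 and 5.95 FPKM in vehicle muscle. In liver, where it was far more abundant, it had 311, 281, 396, 245 and 337 FPKM with SFN, against 183, 193, 186, 145 and 156 FPKM with vehicle. Only SFN mouse 8 reached into the vehicle range in muscle, and the livers were separate. The interaction log2 fold change was −1.58 (standard error 0.25, limma adjusted p = 0.0371).

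Col15a1 (chr4:47208161-47313167, plus strand), a collagen of basement membrane zones, had 6.33, 4.34, 5.97, 6.17 and 5.46 FPKM in SFN muscle, against 8.79, 7.62, 8.16, 9.49 and 8.78 FPKM in vehicle muscle. Liver levels were 3.25, 3.98, 4.4, 3.64 and 3.7 FPKM with SFN, against 2.02, 3.05, 2.57, 2.5 and 2.68 FPKM with vehicle. It was the only collagen in the class, and both tissues were separate (interaction log2 fold change −1.15, standard error 0.18, limma adjusted p = 0.0371). Whole tissue was measured, so fewer cells of a type and less RNA per cell cannot be told apart. Beside these matrix genes, the summed level of the fibroblast and stellate cell markers, leaving out Des (a muscle fibre gene), was 105, 67.5, 135, 105 and 110 FPKM in SFN muscle, against 152, 112, 139, 170 and 172 FPKM in vehicle muscle. In liver it was 40.9, 56.2, 63.4, 44.6 and 65.1 FPKM with SFN, against 74.2, 91.8, 99.2, 102 and 104 FPKM with vehicle. Of the 9 markers tested, 6 fell in the mean of both tissues, and of the 12 listed 0 were at 0 in every library of a group. Col1a1, Col1a2, Dcn and Lum are on both this list and the matrix list. The part of these cells in the changes of matrix genes was not tested.

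Tspan4, a tetraspanin of cell membranes, was chr7:141475240-141493427 on the plus strand. It had 4.13, 5.36, 4.28, 4.36 and 4.11 FPKM in SFN muscle, against 5.26, 5.63, 4.54, 5 and 7.03 FPKM in vehicle muscle, and these overlapped. Liver had 37.7, 39.8, 44.2, 37.1 and 36.5 FPKM with SFN, against 18.5, 19.4, 18.6, 17.6 and 20.1 FPKM with vehicle, and these were separate. The interaction log2 fold change was −1.34 (standard error 0.12, limma adjusted p = 0.00323, with Cyb561 the smallest of the 10819 genes). Tspan4 overlaps Chid1 on the other strand, and reads of overlapping genes cannot be told apart where counting by strand is not stated. The same applies to Med29, Cstf3, Ppp3cc, 2310009A05Rik and Gm10516 in this class.

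Calu, calumenin, a calcium-binding protein of the endoplasmic reticulum (ER), was separate in both tissues. It had 29.6, 27.4, 25.8, 27 and 25.6 FPKM in SFN muscle, against 36.1, 36.2, 31.5, 35.4 and 36.6 FPKM in vehicle muscle, and its liver log2 fold change was 0.55 (standard error 0.12, limma adjusted p = 0.0159). Slc25a33, a mitochondrial carrier of pyrimidine nucleotides, had log2 fold changes of −0.43 in muscle and 0.32 in liver. The ubiquitin ligase Rnf213 and the F-box protein Fbxl17 had small changes that did not overlap in either tissue, −0.31 and 0.29 for Rnf213 and −0.29 and 0.24 for Fbxl17 in muscle and liver.

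Socs3 encodes a feedback inhibitor of cytokine receptors that signal through STAT3. It had 0.952, 1.12, 2.08, 0.671 and 1.01 FPKM in SFN muscle, against 2.84, 1.95, 1.33, 1.51 and 1.55 FPKM in vehicle muscle. In liver it had 4.64, 4.47, 6.51, 3.16 and 8.97 FPKM with SFN, against 4.15, 3.05, 2.42, 3.31 and 3.02 FPKM with vehicle. Both tissues overlapped, while the muscle-minus-liver differences did not (interaction log2 fold change −1.36, standard error 0.24, limma adjusted p = 0.0428). Its promoter is shown as one of 4 in this class, of 18 with a window, that held the STAT site TTCNNNGAA, which 9.55% of all promoters held. The window is chr11:117969367-117969616 on the minus strand:
Socs3: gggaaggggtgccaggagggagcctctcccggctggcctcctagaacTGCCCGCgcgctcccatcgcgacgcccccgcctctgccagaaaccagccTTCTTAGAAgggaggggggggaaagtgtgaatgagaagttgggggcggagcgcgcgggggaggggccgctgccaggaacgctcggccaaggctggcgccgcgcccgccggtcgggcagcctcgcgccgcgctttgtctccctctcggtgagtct
The first capitals mark a metal response element and the second the STAT site.

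**Figure D2:**
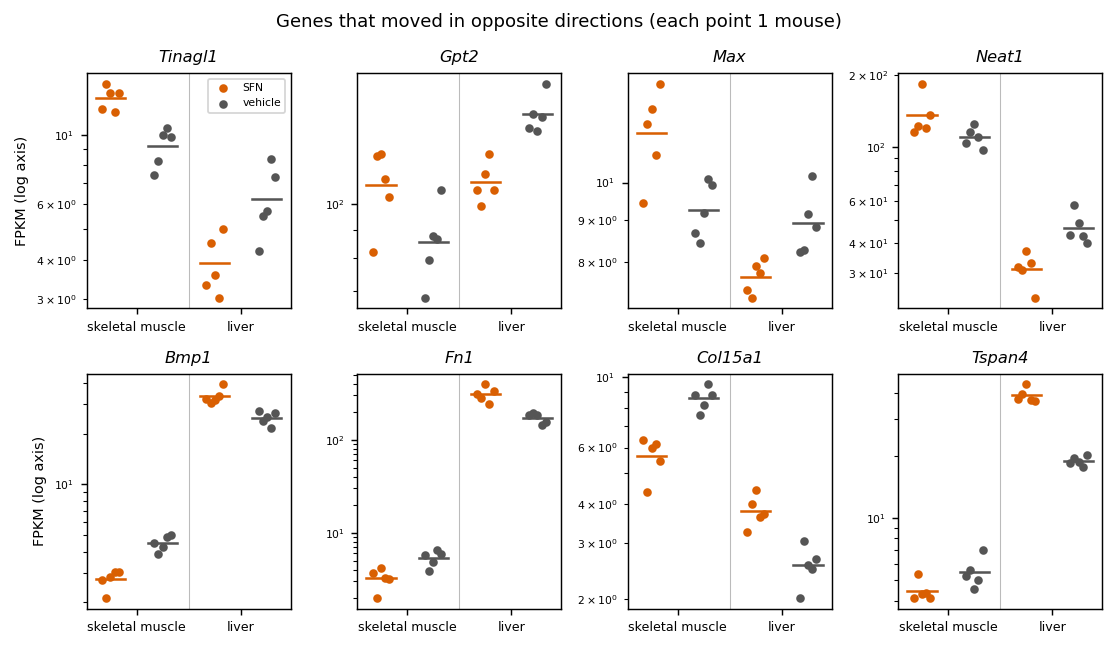
Each panel plots the FPKM (log axis) of 1 gene in each mouse, with SFN left of vehicle in skeletal muscle and then in liver, and a line at the group mean. Tinagl1, Gpt2, Max and Neat1 are higher with SFN in muscle and lower in liver, and Bmp1, Fn1, Col15a1 and Tspan4 are lower in muscle and higher in liver.

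Most of the genes with a different response were past the threshold in liver alone. Of the 92, 52 had an unadjusted p under 0.05 in liver and not in muscle, 33 of them higher and 19 lower in liver. Liver log2 fold changes of the 33 were 0.35 to 2.28 (median 0.96) and their muscle log2 fold changes −0.42 to 0.21 (median −0.11). Vangl1, which had the −0.42, and Avpr1a averaged under 0.5 FPKM in SFN muscle and entered through vehicle muscle. A missed threshold in muscle does not show that muscle did not respond.

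Among those higher in liver, Cyb561, a transmembrane cytochrome that passes electrons from ascorbate, had 1.86, 2.42, 2.24, 1.49 and 1.56 FPKM in SFN muscle, against 1.75, 1.65, 1.54, 1.9 and 1.84 FPKM in vehicle muscle. The liver had 14.9, 16.1, 20.3, 11.6 and 17.2 FPKM with SFN, against 4.38, 5.09, 3.69, 3.54 and 4.01 FPKM with vehicle. The muscles overlapped and the livers were separate (interaction log2 fold change −1.80, standard error 0.16, limma adjusted p = 0.00323). Scara5, a receptor that takes up ferritin, had 5.37, 4.77, 4.78, 5.02 and 5.14 FPKM in SFN liver, against 1.2, 0.95, 0.856, 0.819 and 1.92 FPKM in vehicle liver. Isyna1, which makes inositol phosphate from glucose 6-phosphate, had 31, 21.7, 37.3, 21.2 and 36.6 FPKM in SFN liver, against 4.99, 7.64, 6.87, 5.35 and 5.47 FPKM in vehicle liver. For both genes the muscle groups overlapped, and the interaction log2 fold changes were −2.46 for Scara5 and −2.04 for Isyna1 (standard errors 0.29 and 0.25).

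Genes for secreted peptides were also in this group. Enho, which encodes adropin, had 69.6, 95.2, 46.8, 48.7 and 72.3 FPKM in SFN liver, against 24.6, 11.7, 14.9, 11.9 and 19.5 FPKM in vehicle liver. Nucb2, the precursor of nesfatin-1, had 7.79, 15.5, 15.3, 3.8 and 12.1 FPKM in SFN liver, against 1.04, 2.57, 2.49, 2.14 and 1.8 FPKM in vehicle liver. Their muscle log2 fold changes were −0.10 for Enho and −0.05 for Nucb2 (standard errors 0.16 and 0.13). Liver log2 fold changes of Atp11a, a phospholipid flippase, and Ifitm2, an interferon-induced membrane protein, were 1.49 and 1.33, and their interaction log2 fold changes were −1.61 and −1.38. Atp11a overlaps Gm15347 on the other strand.

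Genes lower in liver alone included enzymes of carbohydrate and redox metabolism. Me1, the cytosolic malic enzyme, which supplies NADPH and is a target of NRF2, had 139, 134, 146, 170 and 167 FPKM in SFN muscle, against 131, 124, 156, 155 and 181 FPKM in vehicle muscle. Its liver values were 52.1, 25.3, 31.3, 64.7 and 31.3 FPKM with SFN, against 99.4, 128, 103, 112 and 144 FPKM with vehicle. The livers were separate and the muscles overlapped widely (interaction log2 fold change 1.62, standard error 0.24, limma adjusted p = 0.0296). Ugp2, which makes UDP-glucose, had 109, 65.6, 71, 129 and 93 FPKM in SFN liver, against 209, 250, 194, 204 and 238 FPKM in vehicle liver, and an interaction log2 fold change of 1.26 (standard error 0.22). Gstm1, a glutathione S-transferase with close paralogs, had 781, 634, 722, 873 and 549 FPKM in SFN liver, against 1419, 1412, 1401, 1088 and 1076 FPKM in vehicle liver.

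Matrix and growth factor genes followed in the same direction. Fbln5, an elastic fibre protein, had interaction and liver log2 fold changes of 1.07 and −1.26, Aebp1, a secreted collagen-binding protein, of 0.96 and −0.80, and Igfbp3, a carrier of insulin-like growth factors, of 1.05 and −0.83. The mitophagy receptor Bnip3, the ubiquitin ligase subunit Wsb1 and the deaminase Rida had interaction log2 fold changes of 0.92, 0.98 and 0.87.

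Muscle alone accounted for 8 genes, 4 higher (Gm10734, Rpl31-ps8, Cdkal1 and Cfap126) and 4 lower (Ccl24, Rps12-ps9, Tfrc and Ston2). Tfrc, the transferrin receptor that brings iron into cells, had 19.6, 10.5, 8.74, 22.3 and 8.49 FPKM in SFN muscle, against 45.4, 31.7, 30.1, 29.5 and 43.3 FPKM in vehicle muscle. Liver levels were 5.19, 5.86, 3.89, 5.26 and 4.66 FPKM with SFN, against 5.62, 5.06, 4.37, 4.91 and 5.71 FPKM with vehicle. All SFN muscles lay below all vehicle muscles, and the livers were mixed (interaction log2 fold change −1.41, standard error 0.25, limma adjusted p = 0.0428). Cdkal1, an enzyme of tRNA modification, had 3.18, 6.23, 6.91, 2.64 and 5.33 FPKM in SFN muscle, against 1.75, 2.22, 2.07, 2.02 and 2.06 FPKM in vehicle muscle. The eosinophil chemokine Ccl24 had 0, 0.0733, 0.186, 0.674 and 0.122 FPKM in SFN muscle, against 0.905, 0.993, 1.24, 1.26 and 1.66 FPKM in vehicle muscle. Ccl24 and Rps12-ps9 averaged under 0.5 FPKM in SFN muscle and entered through vehicle muscle. Rpl31-ps8 and Rps12-ps9 are processed copies of ribosomal protein genes, whose reads can come from their parent genes, and are uncertain. Gm10734 and Rps12-ps9 also overlap other genes.

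A gene was counted as moving together where its mean response over both tissues passed and each tissue had an unadjusted p under 0.05 with the same sign. That held for 57 genes upward and 139 downward. Of the 57, 43 rose in liver alone as well, and of the 139, 81 fell there. Without SFN mouse 6, 7, 8, 9 or 10 the upward count was 93, 32, 25, 87 and 12, and without vehicle mouse 1, 2, 3, 4 or 5 it was 24, 26, 34, 25 and 22. The downward count was 75, 76 and 41 without SFN mouse 7, 8 or 10, and 67, 60, 65, 55 and 76 without vehicle mouse 1, 2, 3, 4 or 5. It stayed within a factor of 1.5 without SFN mouse 6 (165) or 9 (185). Of the 139, 11 averaged under 0.5 FPKM in 1 SFN group, Col14a1 among them, and entered through vehicle mice.

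The rises of the largest size were in acute-phase, metal-binding and glucocorticoid-responsive genes. Lcn2, a siderophore-binding protein of the acute phase, had 0.35, 18.4, 15.8, 0.85 and 4.65 FPKM in SFN muscle, against 0.275, 0.302, 0.238, 0.229 and 0.205 FPKM in vehicle muscle. In liver it had 525, 2332, 2735, 491 and 2091 FPKM with SFN, against 22, 84, 95.7, 23.8 and 11.5 FPKM with vehicle. The groups were separate in both tissues, and SFN mice 6 and 9 had the lowest SFN values in each of them. In vehicle muscle it averaged under the 0.5 FPKM minimum and so entered through SFN muscle, where it was high, and the same holds for Mt2, Ptprf and 2200002D01Rik among the 57. Its log2 fold changes, 3.37 in muscle and 5.21 in liver, are therefore given as a description. With the pseudocount of 0.1, the muscle change of a gene this low in vehicle mice is understated on the log2 scale.

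Mt1 and Mt2 encode metallothioneins, small proteins that bind zinc and copper and are induced by metals and glucocorticoids. Mt1 (chr8:94179082-94180327, plus strand) had 13.8, 82.4, 113, 13.3 and 42.5 FPKM in SFN muscle, against 11.9, 8.26, 8.66, 8.8 and 7.61 FPKM in vehicle muscle. The liver had 125, 941, 614, 111 and 700 FPKM with SFN, against 28.4, 66.1, 44.3, 22.9 and 22.2 FPKM with vehicle. Again the groups were separate in both tissues and mice 6 and 9 were the lowest of the SFN mice. The mean log2 fold change of Mt1 was 2.73 (standard error 0.56, limma adjusted p = 0.0253), and its interaction log2 fold change was −1.34 (limma adjusted p = 0.0956). Mt2 was low in muscle, with 0.312, 2.42, 2.87, 0 and 1.08 FPKM with SFN and 0.307, 0, 0, 0 and 0 FPKM with vehicle. Its liver values were 1.4, 17.9, 12, 1.4 and 16 FPKM with SFN, against 0.283, 0.586, 0.572, 0.719 and 0.56 FPKM with vehicle. The muscle groups overlapped through mouse 9, and the livers were separate.

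The promoters of these neighbouring genes are shown because both moved together and both hold the metal response element TGCNCNC. The Mt1 window is chr8:94178839-94179088 and the Mt2 window chr8:94172368-94172617, both on the plus strand (RefSeq, GRCm38.p6), 5′ to 3′:
Mt1: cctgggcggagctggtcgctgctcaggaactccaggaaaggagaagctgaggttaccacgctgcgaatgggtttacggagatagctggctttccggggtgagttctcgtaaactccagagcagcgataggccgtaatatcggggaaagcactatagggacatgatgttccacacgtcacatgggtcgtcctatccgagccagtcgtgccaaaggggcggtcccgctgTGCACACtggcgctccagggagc
Mt2: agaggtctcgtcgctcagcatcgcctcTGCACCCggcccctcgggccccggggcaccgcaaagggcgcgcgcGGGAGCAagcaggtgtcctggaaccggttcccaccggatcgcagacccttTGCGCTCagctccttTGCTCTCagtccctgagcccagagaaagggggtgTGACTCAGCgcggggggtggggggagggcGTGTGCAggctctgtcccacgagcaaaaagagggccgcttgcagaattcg
In Mt1 the capitals mark 1 metal response element, 23 bases before the start. In Mt2 they mark 5 metal response elements and 1 antioxidant response element, the capital run of 9 letters that lies 79 bases before the start. Of the 42 genes that moved together upward and had a window, 59.5% held a metal response element and 14.3% an antioxidant response element, against 64.6% and 17.4% of the promoters of genes tested and 53.6% and 14% of all promoters. Of 109 with a window that moved together downward the shares were 65.1% and 22%.

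Other genes with large rises were Serpina3n, an acute-phase protease inhibitor, Fkbp5, a co-chaperone induced by glucocorticoids, and Cdkn1a, the cell cycle inhibitor p21. Serpina3n had 1993, 7095, 8861, 1752 and 7673 FPKM in SFN liver, against 378, 464, 498, 343 and 303 FPKM in vehicle liver. Fkbp5, with log2 fold changes of 2.12 in muscle and 0.82 in liver, had 13.9, 53.8, 66.2, 16 and 50 FPKM in SFN muscle, against 7.99, 6.33, 8.99, 7.79 and 6.75 FPKM in vehicle muscle. Their mean log2 fold changes were 2.63 for Serpina3n, 1.47 for Fkbp5 and 1.46 for Cdkn1a (limma adjusted p = 0.0196, 0.0276 and 0.0221).

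Lrg1, leucine-rich alpha-2-glycoprotein of plasma, was the single gene of the together classes that also passed the interaction test. It had 27.4, 45.1, 52.1, 22.5 and 26.3 FPKM in SFN muscle, against 21.8, 26.2, 17.2, 17.3 and 21.4 FPKM in vehicle muscle. Liver levels were 2948, 3510, 3500, 2396 and 3710 FPKM with SFN, against 716, 882, 983, 636 and 526 FPKM with vehicle. The liver groups were separate and the muscle groups overlapped (log2 fold changes 0.67 and 2.12 in muscle and liver, interaction log2 fold change −1.45, standard error 0.27, limma adjusted p = 0.0428). A missed interaction threshold does not show an equal size. Serpina3n, Mt1 and Fkbp5 had interaction log2 fold changes of −1.74, −1.34 and 1.30 and did not pass.

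The genes with the smallest mean-response p among those that rose were of moderate size. Aprt, which salvages adenine, had 16.2, 16.8, 16.4, 17.4 and 17.7 FPKM in SFN muscle, against 12.1, 12.3, 13.1, 14.3 and 11 FPKM in vehicle muscle. In liver it had 29, 27.8, 38.3, 28.3 and 39 FPKM with SFN, against 18.7, 20.1, 25.4, 20.3 and 20.1 FPKM with vehicle. It was separate in both tissues (mean log2 fold change 0.53, standard error 0.07, limma adjusted p = 0.00933). Mean log2 fold changes were 0.78 for the dynein light chain Dynll1, 0.46 for the membrane protein Ly6e, 0.33 for delta-tubulin Tubd1 and 0.32 for the tRNA splicing subunit Tsen54. 2200002D01Rik, which overlaps Yif1b, had a mean log2 fold change of 0.77. Keap1 itself was in the class, with a mean log2 fold change of 0.18 (standard error 0.04, limma adjusted p = 0.0302), and it overlaps Gm16754 on the other strand.

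Among the lists, matrix genes had the most members in the downward class. Of the 45 collagen and matrix genes tested, 22 fell in the mean of both tissues and 0 rose, and 13 met the rule for moving together. Col14a1, among the 13, entered through vehicle mice as stated above. In muscle 20 were lower and 0 higher at an unadjusted p under 0.05 (all genes 7.38% and 6.22%), and in liver 23 fell and 4 rose (all genes 6.85% and 7.38%). The median log2 fold change was −0.38 in muscle and −0.50 in liver, against −0.01 and −0.02 over all genes tested. The count of 22 (all genes 3.40%) was 13, 19, 11, 14, 12, 12 and 12 without SFN mouse 7, 9 or 10 and without vehicle mouse 2, 3, 4 or 5.

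Col3a1, a fibrillar collagen of elastic tissues, had 7.92, 4.72, 9.94, 8.86 and 8.22 FPKM in SFN muscle, against 15.4, 12.4, 14.8, 21.9 and 19.6 FPKM in vehicle muscle. The liver had 5.61, 5.84, 8.45, 6.86 and 8.97 FPKM with SFN, against 11.5, 16.2, 16, 15.8 and 13.3 FPKM with vehicle. Both tissues were separate (mean log2 fold change −1.06, standard error 0.14, limma adjusted p = 0.00851; interaction log2 fold change −0.06). Col1a1, the main chain of collagen I, had 9.77, 6.69, 13.2, 6.93 and 5.99 FPKM in SFN muscle, against 15, 14.3, 13.6, 16.6 and 13.2 FPKM in vehicle muscle. Its liver values were 2.96, 2.6, 5.11, 3.96 and 6.3 FPKM with SFN, against 7.71, 11.5, 12.9, 12.7 and 9.63 FPKM with vehicle. Ltbp4, which tethers latent TGF-beta to the matrix, had the smallest mean-response p of all genes (mean log2 fold change −0.76, standard error 0.06, limma adjusted p = 0.00179). Mean log2 fold changes of Col6a3, Col14a1, Sparcl1 and Angptl2 were −0.70, −1.07, −0.76 and −1.01, and Angptl2 overlaps Ralgps1 on the other strand. As Col14a1 entered through vehicle mice, its value is a description. The fibroblast markers given beside Col15a1 were lower in the same groups, and their part in these changes was not tested. Gm15408 (−0.84) completed the genes with the smallest p.

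Clock genes were in both together classes. Arntl, which encodes the clock activator BMAL1, had 9.24, 14.6, 13, 7.62 and 10.1 FPKM in SFN muscle, against 7.51, 6.62, 7.37, 5.44 and 4.81 FPKM in vehicle muscle. Liver levels were 2.91, 3.72, 2.14, 2.9 and 2.53 FPKM with SFN, against 1.99, 2.12, 1.71, 1.24 and 0.722 FPKM with vehicle. Dbp, a clock output factor, had 9.17, 3.68, 2.74, 25.6 and 4.26 FPKM in SFN muscle, against 33.5, 21.7, 27.8, 38.6 and 49.3 FPKM in vehicle muscle. In liver Dbp had 2.89, 3.45, 8.77, 8.82 and 8.74 FPKM with SFN, against 15.4, 13.4, 20.6, 33 and 53.9 FPKM with vehicle. Arntl was separate in both tissues, and Dbp in liver only (mean log2 fold changes 0.82 and −2.18, limma adjusted p = 0.0354 and 0.0166). Dbp overlaps Sphk2 on the other strand and is uncertain. Of 21 clock genes tested, 3 rose and 6 fell in the mean response (all genes 2.69% and 3.40%). The 3 were 1, 5 and 1 without SFN mouse 8 or 9 or vehicle mouse 4, and the 6 were 3, 3, 2, 2 and 3 without SFN mouse 7, 8 or 10 or vehicle mouse 3 or 4. Tspan4, which is on that list, passed the limma interaction test. With recovered reads edgeR passed 2 and DESeq2 5 of the list (all genes 474 of 10464 and 833 of 10058). The clock repressor Nr1d2 and the transcription factor Bhlhe40 met the rule for moving together downward. The time of day at which each mouse was killed is not given in the labels, and its part was not tested.

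**Figure D3:**
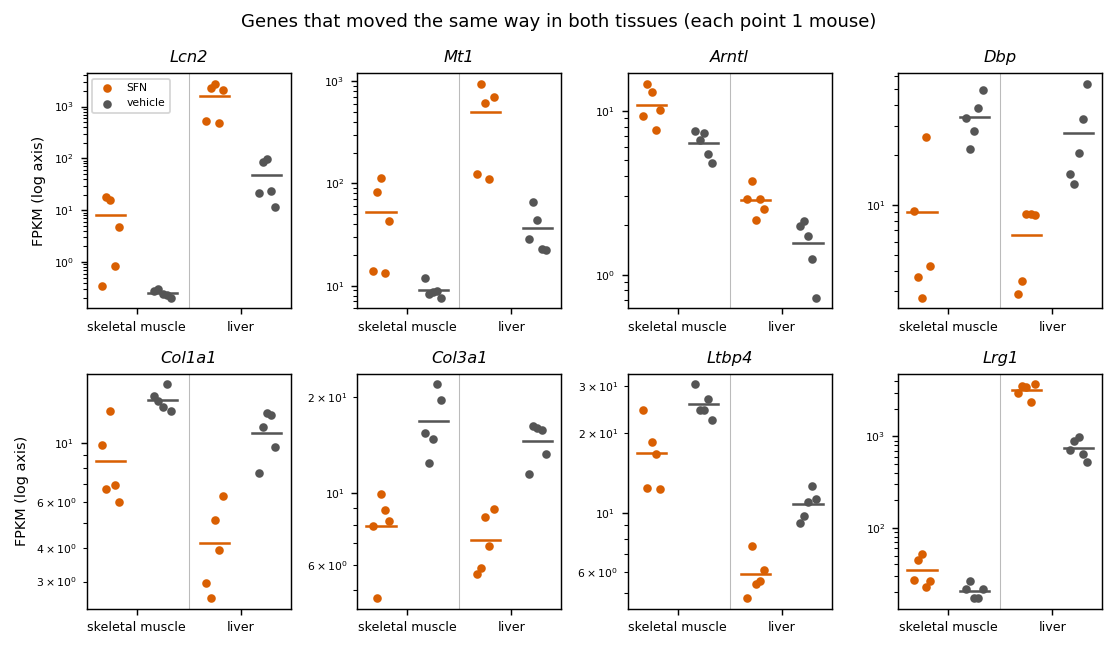
Each panel plots the FPKM (log axis) of 1 gene in each mouse, with SFN left of vehicle in skeletal muscle and then in liver, and a line at the group mean. Lcn2, Mt1, Arntl and Lrg1 are higher and Dbp, Col1a1, Col3a1 and Ltbp4 lower with SFN in both tissues, and the SFN mice spread widely for Lcn2 and Mt1.

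NRF2 target genes leaned apart in the 2 tissues. Of 33 listed, 29 were tested. In muscle 10 were higher and 2 lower at an unadjusted p under 0.05 (all genes 6.22% and 7.38%), and in liver 11 fell and 0 rose (all genes 6.85% and 7.38%). The 11 were 6, 6, 13 and 6 without SFN mouse 7, 8, 9 or 10 and 7 and 6 without vehicle mouse 2 or 3. The median log2 fold change was 0.21 in muscle and −0.28 in liver, and the median interaction log2 fold change was 0.51, against 0.01 over all genes tested. The muscle value was above 0 and the liver value below 0 in 20 of the 29, a pattern that 24.3% of all genes had. For 16 of the 29 the interaction had an unadjusted p under 0.05 with muscle higher (all genes 10.2%), and 2 of them, Me1 and Gstm1, passed limma after adjustment. On recovered reads edgeR passed 4 and DESeq2 10 (all genes 474 of 10464 and 833 of 10058). Without SFN mouse 9, 8 passed. Without SFN mouse 6 or vehicle mouse 3, 1 passed, and without any 1 of the other 7 mice 0 did. With no replicate block 11 passed.

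Of 6 oxidative stress genes described here (Hmox1, Gclm, Srxn1, Gsr, Txnrd1 and Nqo1), 0 passed the interaction test in limma, where 6 had an unadjusted p under 0.05. With the mouse as a replicate block on recovered reads, edgeR passed 1 and DESeq2 passed 3, and limma without SFN mouse 9 passed 2. In muscle 5 had an unadjusted p under 0.05. Srxn1, sulfiredoxin, had 19, 38.6, 60, 13.9 and 23.6 FPKM in SFN muscle, against 17.9, 13.8, 13.1, 19.9 and 15.2 FPKM in vehicle muscle. In liver it had 31.5, 24.6, 26.2, 32.9 and 24.4 FPKM with SFN, against 38.8, 46.3, 38.5, 33.6 and 32.1 FPKM with vehicle. Both tissues overlapped, and in muscle mice 6 and 9 lay within the vehicle range (interaction log2 fold change 1.21, standard error 0.42, limma adjusted p = 0.147). Srxn1 fell in liver (log2 fold change −0.44, limma adjusted p = 0.0323).

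Gclm, the regulatory subunit of the enzyme that starts glutathione synthesis, had 5.64, 7.9, 7.9, 5.3 and 6.99 FPKM in SFN muscle, against 4.3, 3.55, 4, 5.75 and 4.71 FPKM in vehicle muscle. The liver had 53.7, 52, 51.2, 56.7 and 57.4 FPKM with SFN, against 61.5, 57.2, 53.3, 58.5 and 55.4 FPKM with vehicle. Its interaction log2 fold change was 0.66 (standard error 0.18, limma adjusted p = 0.0877), and over the alternatives that p ran between 0.00897 and 0.195. Hmox1, heme oxygenase 1, had 4.87, 10.8, 9.54, 5.48 and 7.24 FPKM in SFN muscle, against 5.51, 3.56, 3.16, 4.26 and 4.4 FPKM in vehicle muscle. Its liver values were 12.1, 18.7, 14.8, 14.9 and 25.1 FPKM with SFN, against 11.6, 23.1, 16.2, 22.9 and 14.5 FPKM with vehicle. In muscle mice 6 and 9 lay within the vehicle range, and the livers were mixed (interaction log2 fold change 0.85, standard error 0.32, limma adjusted p = 0.172).

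Txnrd1, thioredoxin reductase, had 26.2, 41.3, 41.8, 22.3 and 34.4 FPKM in SFN muscle, against 23.4, 23, 22.9, 23.5 and 21.8 FPKM in vehicle muscle, and the muscle of mouse 9 was again in the vehicle range. Its interaction log2 fold change was 0.67 (standard error 0.22, limma adjusted p = 0.125). Nqo1, a quinone reductase, and Gsr, glutathione reductase, had interaction log2 fold changes of 0.84 and 0.51 (standard errors 0.34 and 0.22, limma adjusted p = 0.199 and 0.223). Not every target went this way. Gsta4 and Ephx1, both detoxifying enzymes, met the rule for moving together downward, with mean log2 fold changes of −0.59 and −0.45.

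**Figure D4:**
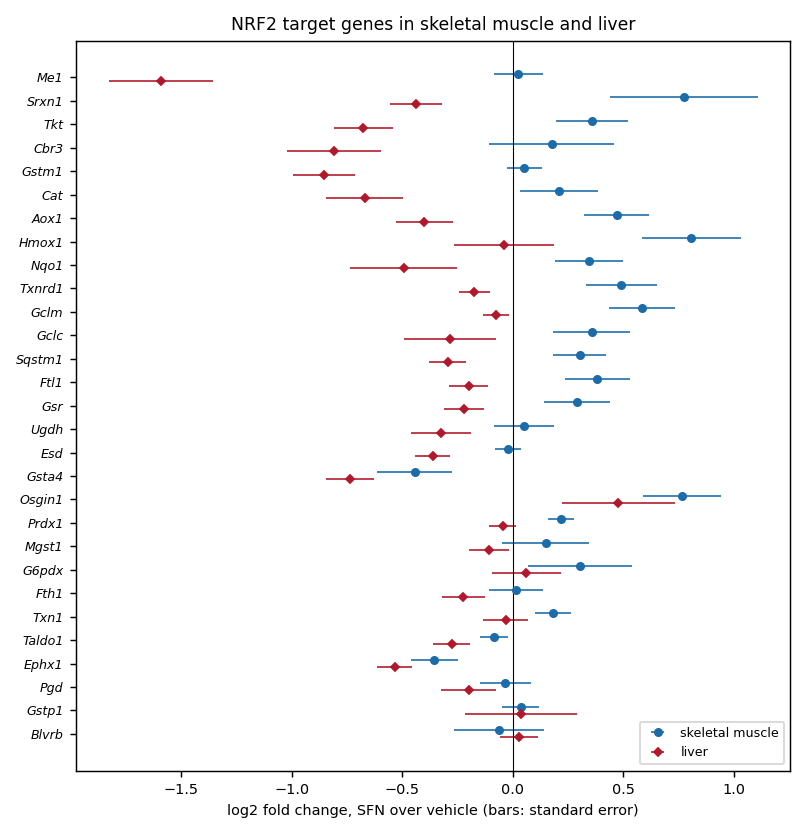
The log2 fold change (SFN over vehicle) with its standard error is plotted for each of 29 NRF2 target genes, circles for skeletal muscle and diamonds for liver, ordered by the difference. The circle lies above 0 and the diamond below 0 for 20 genes, and Me1 has the widest gap through its liver value.

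ER protein folding genes rose in liver, with a muscle median near 0. Of 40 tested, 30 rose in liver (all genes 7.38%) and 0 fell. With muscle lower, 35 had an unadjusted interaction p under 0.05 (all genes 11.1%), and 5 passed limma (Pdia6, Ostc, Ssr4, Calr and Rpn1). On recovered reads edgeR passed 21 and DESeq2 27 (all genes 474 of 10464 and 833 of 10058). The median log2 fold change was −0.01 in muscle and 0.58 in liver. With edgeR on recovered reads the muscle median was 0.00122, on the other side of 0. Without SFN mouse 9, 20 passed the interaction test, and without any 1 of the other 9 mice 0 did. With no replicate block 25 passed.

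Pdia6, a disulfide isomerase, had 14.5, 13.1, 16.8, 16.3 and 17.4 FPKM in SFN muscle, against 16.3, 18.2, 17.3, 17.6 and 18.7 FPKM in vehicle muscle. Liver levels were 175 to 317 FPKM with SFN, against 104 to 139 FPKM with vehicle. The livers were separate and the muscles overlapped (interaction log2 fold change −1.18, standard error 0.20, limma adjusted p = 0.0421). Calr, the lectin chaperone calreticulin, had 731, 1110, 964, 643 and 873 FPKM in SFN liver, against 390, 465, 516, 511 and 366 FPKM in vehicle liver, and its muscle log2 fold change was 0.07 (standard error 0.06). Ostc, of the oligosaccharyltransferase, and Ssr4, of the translocon-associated complex, had interaction log2 fold changes of −0.87 and −0.78.

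Ribosomal protein genes followed the same pattern at a smaller size. Of 42 tested, 38 rose in liver (all genes 7.38%; 25 without vehicle mouse 5), 0 differed in muscle at an unadjusted p under 0.05, and 29 had an unadjusted interaction p under 0.05 with muscle lower (all genes 11.1%), of which 0 passed limma after adjustment (edgeR 6 and DESeq2 9 on recovered reads). The median log2 fold change was 0.02 in muscle and 0.37 in liver. Rplp1, of the ribosomal stalk, had 1031, 1157, 1095, 947 and 1180 FPKM in SFN liver, against 643, 652, 923, 809 and 662 FPKM in vehicle liver. With no replicate block 17 of the 42 passed the interaction test, and without SFN mouse 9 12 did. Many of these genes have processed copies, so single values are uncertain.

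FoxO and muscle atrophy genes leaned the other way. Of 28 tested, 9 were higher and 1 lower in muscle at an unadjusted p under 0.05 (all genes 6.22% and 7.38%), and in liver 5 fell and 2 rose (all genes 6.85% and 7.38%). The 2 were 4 without SFN mouse 6 and 1 without SFN mouse 10 or vehicle mouse 3, 4 or 5. The muscle value was above 0 and the liver value below 0 in 19 of the 28 (all genes 24.3%), with medians of 0.33 and −0.17. Fbxo32, the muscle ubiquitin ligase atrogin-1, had 124, 337, 356, 70.9 and 326 FPKM in SFN muscle, against 106, 92.6, 124, 92 and 71.6 FPKM in vehicle muscle. Mouse 9 (70.9 FPKM) was just below the lowest vehicle mouse (71.6 FPKM), and mouse 6 was at the upper edge of the vehicle mice. The muscle log2 fold change of Fbxo32 was 1.08 (standard error 0.42, limma adjusted p = 0.315). Bnip3 passed the limma interaction test, and edgeR passed 2 and DESeq2 6 of the 28 (all genes 474 of 10464 and 833 of 10058). In limma 5 passed without SFN mouse 9, and 0 without any 1 of the other 9 mice.

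Smaller shifts of this kind were seen for proteasome subunits and ribosome biogenesis factors. Of 34 proteasome genes, 12 were higher and 0 lower in muscle at an unadjusted p under 0.05 (all genes 6.22% and 7.38%), and 25 had a muscle value above 0 with a liver value below 0 (all genes 24.3%). The medians were 0.11 in muscle and −0.11 in liver, and 0 passed the interaction test in limma or edgeR. Before adjustment 10 had an interaction limma p under 0.05 with muscle higher and 1 with muscle lower (all genes 10.2% and 11.1%). DESeq2 passed 2 (all genes 833 of 10058), and limma without SFN mouse 9 passed 2 (all genes 452 of 10819). Of 52 ribosome biogenesis factors 16 were higher and 1 lower in muscle at that p (all genes 6.22% and 7.38%), and the median interaction log2 fold change was 0.24. Of the 52, 19 had an unadjusted interaction p under 0.05 with muscle higher and 2 with muscle lower (all genes 10.2% and 11.1%). In limma 0 passed (1 without SFN mouse 9), while edgeR passed 1 and DESeq2 3 (all genes 474 of 10464 and 833 of 10058). The most abundant proteasome members had muscle and liver log2 fold changes of 0.03 and 0.11 (Psmb5) and 0.14 and −0.04 (Psmc5), and those of ribosome biogenesis −0.32 and −0.14 (Rcl1) and 0.08 and −0.15 (Imp3).

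Lists of fuel metabolism differed in liver. Of 30 glucose metabolism genes tested (42 listed) 4 rose and 4 fell there (all genes 7.38% and 6.85%). Of 21 genes of de novo lipogenesis, 11 fell in liver and 0 rose, with a median liver log2 fold change of −0.99 and a muscle median of −0.07. The 11 were 6, 5, 13 and 5 without SFN mouse 7, 8, 9 or 10 and 7, 7 and 4 without vehicle mouse 1, 2 or 5. Me1 passed the limma interaction test (5 genes passed without SFN mouse 9, and 1 or 0 without any other mouse), where edgeR passed 6 and DESeq2 8. Of 33 fatty acid oxidation genes 17 fell in liver, and of 22 genes of branched-chain amino acid breakdown 13 fell there, with 0 rising in either list (all genes 6.85% lower and 7.38% higher). The 17 were 10 without SFN mouse 8 and 11, 8, 11, 11 and 7 without vehicle mouse 1, 2, 3, 4 or 5. The 13 were 7, 6 and 7 without SFN mouse 7, 8 or 10 and 7, 6 and 5 without vehicle mouse 1, 4 or 5. The interaction passed for 0 genes of both lists in limma (2 and 4 without SFN mouse 9). At an unadjusted interaction p under 0.05, 6 oxidation genes had muscle higher and 0 lower, and 7 and 1 amino acid genes did (all genes 10.2% and 11.1%). On recovered reads edgeR passed 3 and 1 and DESeq2 5 and 4 (all genes 474 of 10464 and 833 of 10058). Of 63 respiratory chain subunits, 60 were below 0 in both tissues (all genes 28.4%), and 24 fell in the mean response (all genes 3.40%) while 0 rose. At an unadjusted p under 0.05, 10 were lower in muscle (all genes 7.38%). The medians were −0.19 in muscle and −0.23 in liver. Atp5a1, of the ATP synthase, had 1150, 1134, 951, 969 and 896 FPKM in SFN muscle, against 1291, 1430, 1119, 1182 and 1022 FPKM in vehicle muscle, and it overlaps Haus1 on the other strand. The count of 24 was 3, 4, 28 and 1 without SFN mouse 7, 8, 9 or 10, and 2, 2, 8, 4 and 8 without vehicle mouse 1, 2, 3, 4 or 5.

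Of 31 acute-phase genes listed, only 14 reached the minimum in both tissues and were tested. Of the 14, 8 rose in liver and 0 fell (all genes 7.38% higher). Their medians were 0.04 in muscle and 0.705 in liver, and with edgeR on recovered reads the muscle median was 0.28. Socs3 passed the limma interaction test, edgeR passed 4 and DESeq2 6. In limma 0 passed without SFN mouse 6 or 7 or any 1 vehicle mouse. Of 17 glucocorticoid-responsive genes 5 rose in the mean response (all genes 2.69%) and 0 fell, all 5 of them in the together class (Cdkn1a, Fkbp5, Lcn2, Mt1 and Mt2). Lcn2 and Mt2 entered through SFN muscle, so the count is a description. The lists share members: Lcn2 is also on the acute-phase list, Mt1 and Mt2 on that of metallothioneins and Cdkn1a on that of FoxO genes. The 5 were 2, 2 and 1 without SFN mouse 7, 8 or 10 and 2, 3, 3, 1 and 2 without vehicle mouse 1, 2, 3, 4 or 5. Of 38 DNA replication genes listed, 19 were tested, and 5 of these rose in liver (all genes 7.38%). Mcm6, of the replicative helicase, passed the limma interaction test, where edgeR and DESeq2 passed 3 each (log2 fold changes −0.24 in muscle and 0.96 in liver). Igfbp3 passed limma among 23 genes of insulin and growth signalling, where edgeR passed 2 and DESeq2 3. Bnip3 passed limma among 36 autophagy and lysosome genes, where edgeR passed 2 and DESeq2 4. Over all genes edgeR passed 474 of 10464 and DESeq2 833 of 10058, and the autophagy counts lie near those shares. Without SFN mouse 9 limma passed 3 genes in each of the DNA replication, insulin and autophagy lists, and without any 1 of the other mice 1 or 0.

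**Figure D5:**
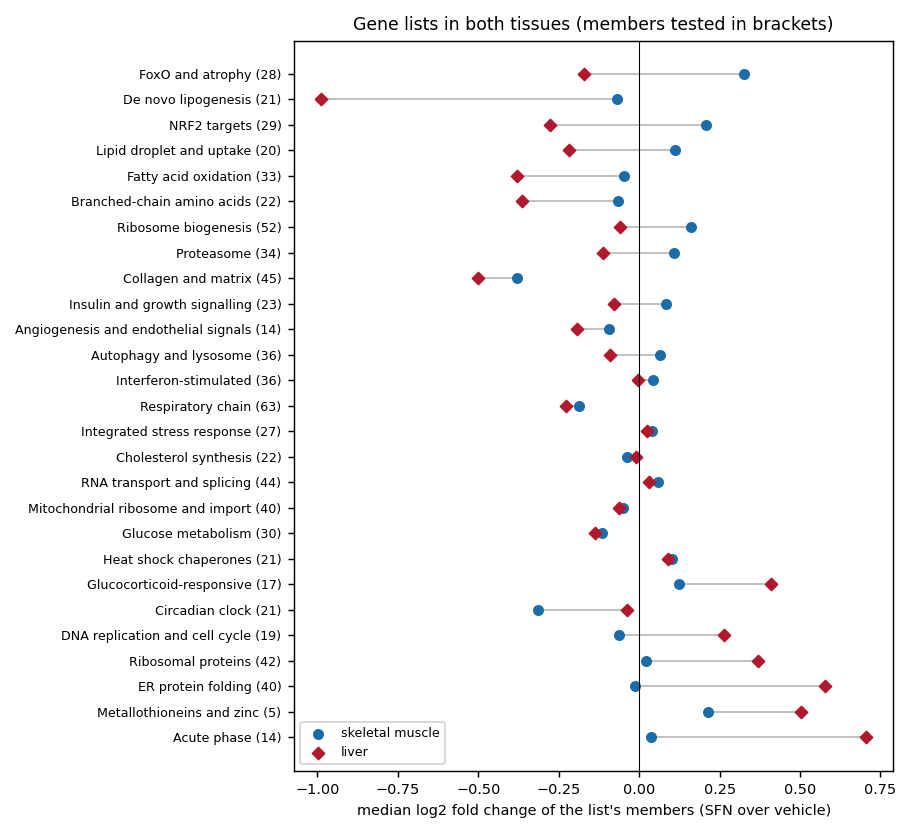
For each of 27 gene lists the median log2 fold change (SFN over vehicle) of the members tested is plotted, with circles for skeletal muscle and diamonds for liver, ordered by the median interaction log2 fold change. NRF2 targets and FoxO genes lie above 0 in muscle and below 0 in liver, ER folding genes lie near 0 in muscle and at 0.58 in liver, and collagen and respiratory chain genes lie below 0 in both.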

How the data were processed

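RNA from the skeletal muscle and liver of 10 DIO mice was extracted with Trizol, poly A selected and sequenced. The deposited FPKM were made by the authors for 54532 genes, and per the submitters' processing notes the reads were mapped to mm10 (GRCm38). The sources used here name no aligner, counting program, annotation release or use of strand. The authors also deposited read counts for single comparisons, used only to check the reads recovered here. Their log2 fold changes, p-values and adjusted p-values were not used, nor were the libraries of the other 4 tissues. Columns of other series numbered 0.

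FPKM were analysed as log2(FPKM + 0.1) in R 4.3.3 with limma 3.58.1 (intensity trend, two-sided, Benjamini-Hochberg over 10819 genes). The interaction was fitted on the muscle-minus-liver difference of each mouse and the mean response on the average of its libraries, 5 SFN against 5 vehicle mice, which keeps the mouse as the block. Muscle and liver were also fitted alone. Single differences were tested by exact permutation over the 10 mice. FPKM were turned back into whole reads with the table's gene length for 6136 genes and the annotation's for 22963 of 29745 genes above 0 (646 were not whole, tolerance 0.01 reads). Of 67170 deposited counts compared, 0 differed. As alternatives, the recovered reads were tested with edgeR 4.0.16 and with DESeq2 1.42.0. The scripts were tested on simulated data. Depth, 16339081 to 21205954 reads per library, limits the precision of low FPKM.

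The tissues were paired by the labels' mouse id, taken to mark 1 animal, which the values do not show. Deviations of a mouse's muscle and liver from their group means had correlations of −0.0403 to 0.0396, and 0 of 10 muscles matched their own liver best.

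Named genes were the 10 largest interaction changes in each direction (protein-coding, past the test, averaging 1 FPKM or more in each tissue, no overlap of the mice), up to 8 genes of each opposite and together class by smallest p, up to 4 that passed or else the 2 most abundant of each list, and 6 oxidative stress genes. Fkbp5, Cdkn1a, Serpina3n, Mt2, Arntl, Dbp, Nr1d2, Bhlhe40, Keap1, Gsta4, Ephx1, Fbxo32, Ccl24, Cdkal1 and other class members outside this rule were chosen after their values were seen. The members, lists and tests were chosen with earlier results of these data known. Lists are given by counts and medians. Alternatives changed the pseudocount, minimum, scaling, trend, tool and block, and left out each mouse. A gene that the rule names is not reported here.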

Additional observations from a re-analysis of the deposited data

Results flagged for a closer look

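The response to SFN differed between muscle and liver for 92 genes by the test of the difference itself. Among them 6 genes were higher in muscle and lower in liver, and 25 were lower in muscle and higher in liver.

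Of 44 marker sums tested for a sample far from the other 4 of its group, 5 had one, where chance gives about 1 in 20. Nerve markers summed to 346 FPKM in the muscle of SFN mouse 9, against 29.9 to 75.2 FPKM in the other SFN muscles, and to 37 FPKM in the muscle of vehicle mouse 3, against 53.2 to 59.5 FPKM in the other vehicle muscles. Neutrophil markers summed to 11.4 FPKM in the muscle of SFN mouse 7, against 0.646 to 1.52 FPKM in the others. Macrophage markers summed to 331 FPKM in the liver of SFN mouse 10, against 201 to 236 FPKM. Muscle fibre markers summed to 15.7 FPKM in the liver of vehicle mouse 4, against 3.87 to 5.32 FPKM. Of 90 single-gene differences tested in the same way, 0 had such a sample. Most of these belong to genes chosen because they passed the interaction test on the same differences. That choice selects against a stray sample, so the 0 cannot show whether single mice drive these genes.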

How the results depend on the processing

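The interaction count of 92 became 249 with a pseudocount of 1 (90 genes shared), 20 with no minimum, 474 with edgeR and 833 with DESeq2 on recovered reads with the mouse as a replicate block, 754 with no replicate block and 692 with a random replicate block. Leaving out 1 mouse gave 8 to 452. The mean response (659) became 340 with no minimum and 1044 with the random block, and 131 to 936 without 1 mouse. Muscle passed 0 genes in limma (1471 at an unadjusted p under 0.05), 0 in edgeR and 156 in DESeq2, and 0 to 3 without 1 mouse. Liver ranged between 806 and 1794 without 1 mouse. The class of muscle higher and liver lower (6) became 23 with a pseudocount of 1, 11 with a minimum of 1 FPKM, 1 with no minimum, 100 with no replicate block and 95 with the random block, and 1 to 70 without 1 mouse. The class of muscle lower and liver higher (25) became 45 with a pseudocount of 1, 5 with no minimum, 107 with no replicate block and 103 with the random block, and 1 to 81 without 1 mouse. Together higher (57) became 36 with no minimum, 92 with no replicate block and 93 with the random block, and 12 to 93 without 1 mouse. Together lower (139) became 84 with no minimum, and 41 to 185 without 1 mouse. The cause of these shifts was not tested. Of 944 alternatives over 45 named genes, 0 reversed the direction and 293 took a gene out of the calls, all but 3 of them with no minimum or without 1 mouse. Tinagl1, Scara5, Isyna1, Cyb561, Atp11a, Bmp1 and Tspan4 passed under each of their 21.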
